A study of Mus musculus with 9 samples.

Results

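Strain ratios of metallothioneins and of genes induced by glucocorticoid hormones and cellular stress were measured in brain, kidney and liver of SJL/J and C57BL/6J mice, which are inbred laboratory strains. The members were the probes whose single gene symbol was Mt1, Mt2, Mt3, Fkbp5, Tsc22d3, Sgk1, Cdkn1a or Dusp1. Of these 8 genes 7 were found, each with 1 probe, among 23040 probes that covered 15096 genes by single symbol. No probe carried Mt2 as its single symbol. The genes were put together by symbol, with their strain ratios on these arrays known, among them the high Mt1 ratio in liver. Ratios of the members, and whether they passed the fit, are therefore a description and support nothing further.

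RNA came from males aged 8 weeks, and the RNA of 5 mice was pooled per strain and tissue. Each array carried the SJL/J pool labelled with Alexa Fluor 647 and the C57BL/6J pool labelled with Alexa Fluor 555. There were 3 arrays each for brain, kidney and liver, all technical replicates of the same pair of pools, with the dyes never exchanged. The SD given here and the calls cover only the spread between arrays, not between mice, and a dye effect of a probe is part of its ratio. On the kidney and liver arrays 1 label, the tissue of channel 1, says brain; the tissue here is that of the titles. A positive log2 ratio means more RNA in SJL/J than in C57BL/6J, with direction and log base inferred from the order of strains in the titles and from the convention of limma.

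The deposited table held ratios and no levels, so the tissues could not be checked by the level of their markers, no dim spot could be set aside, and genes cannot be ranked by abundance. In whole tissue, fewer cells of a type and less RNA per cell cannot be told apart. Sorted values of the 9 arrays were the same, with a range of -3.91 to 5.09. Residual SD per array ran from 0.20 to 0.32, the highest on brain replicate 3. Probes whose number is a multiple of 8 had low ratios (median -0.17 in brain, -0.36 in kidney and -0.19 in liver, against 0.03 to 0.06 for the others), and 0 of the 7 members lay there. A probe "passed" where limma's moderated test of the tissue mean against 0 gave a Benjamini-Hochberg adjusted p under 0.05 over all probes.

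Metallothioneins are small proteins rich in cysteine that bind zinc and copper. Their genes are switched on by metals through the zinc sensor Mtf1, which binds metal response elements, and Mt1 and Mt2 also respond to glucocorticoids and to inflammation in liver. Mt1 and Mt2 are made in most tissues, whereas Mt3 is best known from brain and Mt4 from stratified epithelium. Glucocorticoids act through the receptor Nr3c1: Fkbp5 is a co-chaperone that lowers the receptor's hormone affinity, Tsc22d3 encodes the leucine zipper protein GILZ, which dampens inflammation, and Sgk1 is a kinase that raises sodium transport in the kidney. Cdkn1a encodes p21, an inhibitor of cyclin-dependent kinases downstream of p53, and Dusp1 a phosphatase that switches off MAP kinases. Both are induced by many stresses and also by glucocorticoids.

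Promoter windows of 3 members are shown. Mt1 and Mt3 were chosen because both were high in the SJL/J liver pool. Fkbp5 was chosen as the member with the highest kidney ratio apart from the metallothioneins. The windows are RefSeq sequence of build GRCm38.p6, from 250 bases before to 50 after the annotated start, 5′ to 3′ on the gene's strand. This reference is C57BL/6J sequence, and SJL/J sequence was not used here. Capitals mark matches to the core of the metal response element (TGCACNC or TGCGCNC) or to a loose glucocorticoid response element (GNACA, any 3 bases, TGTNC), searched on both strands.
Mt1 (chr8:94178839-94179138, plus strand): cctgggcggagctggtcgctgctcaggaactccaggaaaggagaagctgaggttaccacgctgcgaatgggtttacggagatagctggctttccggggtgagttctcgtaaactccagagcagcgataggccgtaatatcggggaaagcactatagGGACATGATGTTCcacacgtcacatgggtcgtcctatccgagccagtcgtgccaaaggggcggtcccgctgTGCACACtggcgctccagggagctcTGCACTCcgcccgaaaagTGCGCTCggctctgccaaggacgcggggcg
Mt3 (chr8:94152357-94152656, plus strand): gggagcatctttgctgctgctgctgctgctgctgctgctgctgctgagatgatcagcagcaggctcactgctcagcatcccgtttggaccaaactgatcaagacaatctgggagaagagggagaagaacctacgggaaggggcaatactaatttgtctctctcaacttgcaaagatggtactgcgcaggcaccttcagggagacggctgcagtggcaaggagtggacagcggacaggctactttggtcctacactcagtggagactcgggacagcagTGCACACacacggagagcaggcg
Fkbp5 (chr17:28486100-28486399, minus strand): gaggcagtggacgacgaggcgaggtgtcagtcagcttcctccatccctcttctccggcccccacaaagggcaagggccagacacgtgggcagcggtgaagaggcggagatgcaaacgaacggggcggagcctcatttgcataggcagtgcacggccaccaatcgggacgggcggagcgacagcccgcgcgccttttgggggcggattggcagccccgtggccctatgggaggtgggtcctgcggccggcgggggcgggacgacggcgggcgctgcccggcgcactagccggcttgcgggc

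In the Mt1 window the metal core occurred 3 times, all on the plus strand, and the glucocorticoid motif once, in a place that matches on both strands. The metal cores began at -23, 2 and 20 from the annotated start, so all but the first lay after it. Bases outside the window were not searched, and whether this start is the one used in these tissues was not tested. The matches did not overlap each other. Of 32851 windows in the table, 1.97% held at least 3 metal cores, 25.7% held at least 1, and 0.475% held the glucocorticoid motif. Mt3 had 1 metal core, likewise after the annotated start (at 27), and Fkbp5 had none of these letters. Among the other members with values, the glucocorticoid motif was found in 1 of 6 Sgk1 windows and the metal core in another, and Dusp1 had 1 metal core and 1 cyclic AMP response element (TGACGTCA, in 1.79% of windows). Neither the 3 Tsc22d3 windows nor the 2 Cdkn1a windows held any of the motifs. A match is a description of the letters, not a site shown to be bound.

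Mt1 had the highest strain ratio of the members, in liver. On liver replicates 1, 2 and 3 the log2 ratio of Mt1 was 4.80, 3.85 and 3.996, a mean of 4.22 ± 0.51 (SD, n = 3 arrays), which is 18.6-fold on a linear scale and rank 4 of all probes from the highest. In kidney the arrays gave 1.27, 0.55 and 0.77 (0.86 ± 0.37, SD, n = 3), and in brain -0.13, 0.17 and 0.58 (0.21 ± 0.35). All liver arrays lay above all kidney arrays, and the lowest kidney array lay below the highest brain array. Mt1 passed in liver and kidney and not in brain, and without kidney replicate 1 the kidney mean was 0.66 and did not pass.

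**Figure D1:**
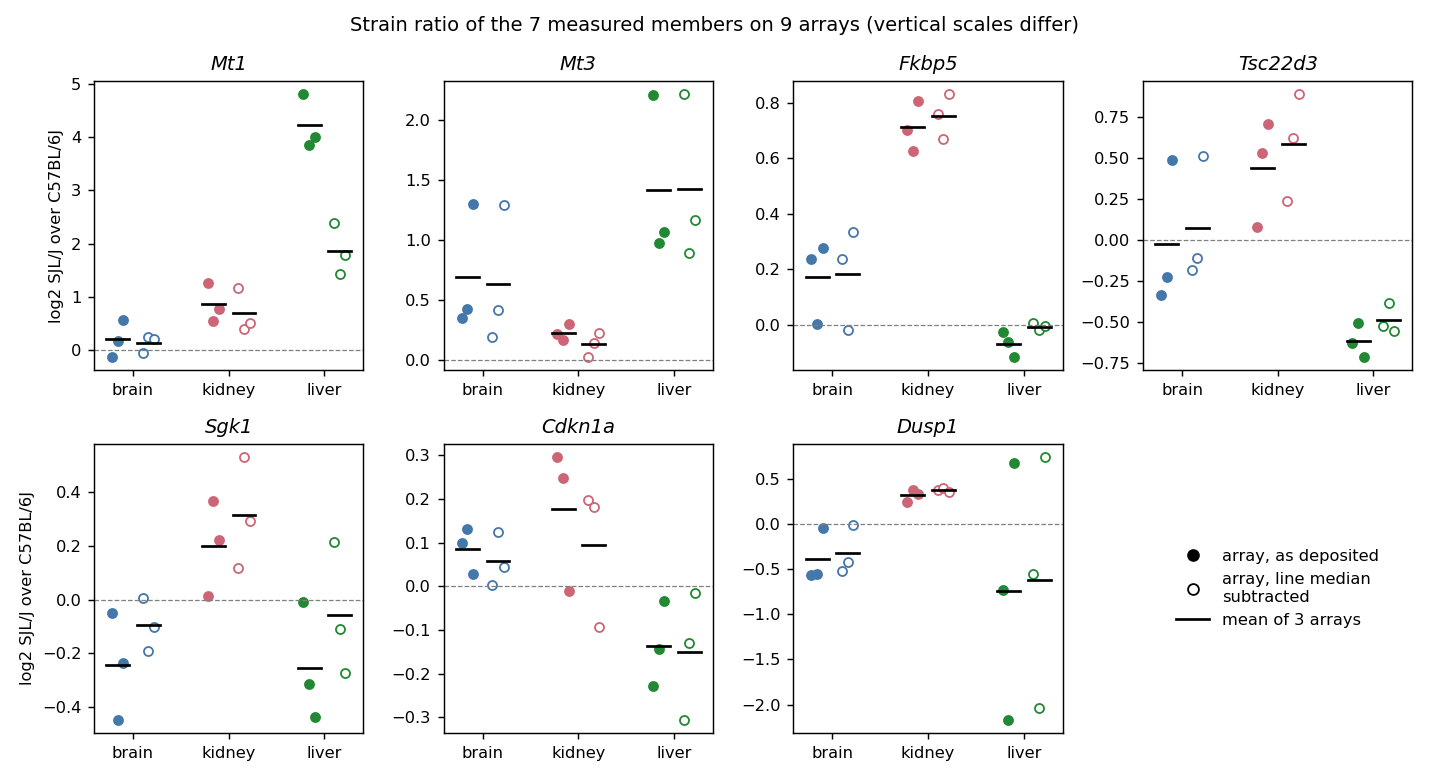
Log2 strain ratio (SJL/J over C57BL/6J, vertical axis) of the 7 measured genes on the 3 arrays each of brain, kidney and liver, as deposited (filled) and with the median of the probe's line of 24 subtracted (open); bars are means of 3 arrays and vertical scales differ between panels. The means of Mt1 and Mt3 are highest in liver, at 4.22 and 1.42 as deposited, whereas that of Fkbp5 is highest in kidney, at 0.71.

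The Mt1 ratio in liver stood in a line of probes that was high as a whole. Probe numbers run in lines of 24, and the line that holds Mt1, at place 21, had a median of its probes' means of 2.40 in liver, against 0.07 in brain and 0.17 in kidney. It ranked 2 of 960 lines from the highest in liver, where 14 lines had a median of at least 1 and 0 had one of at most -1. The lines just before and after it had liver medians of 0.11 and 0.45.

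Within the line, the other probes at places 1 to 21 ran from 0.52 to 3.55 in liver, with 19 of 20 above 1, whereas the 3 probes at places 22 to 24 ran from -0.19 to 0.56; the split by place was chosen after the values were seen. Of the 24 probes 16 had a single symbol. The 15 named besides Mt1 had a median of 2.14 and the 8 unnamed ones 2.93, and Tfrc, the transferrin receptor of iron uptake, was among the named at 2.45. Mt1 was the highest of the 24 on each liver array, 1.32, 0.33 and 0.34 above the next probe on replicates 1, 2 and 3. In kidney its rank in the line was 1, 4 and 3 on replicates 1, 2 and 3.

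**Figure D2:**
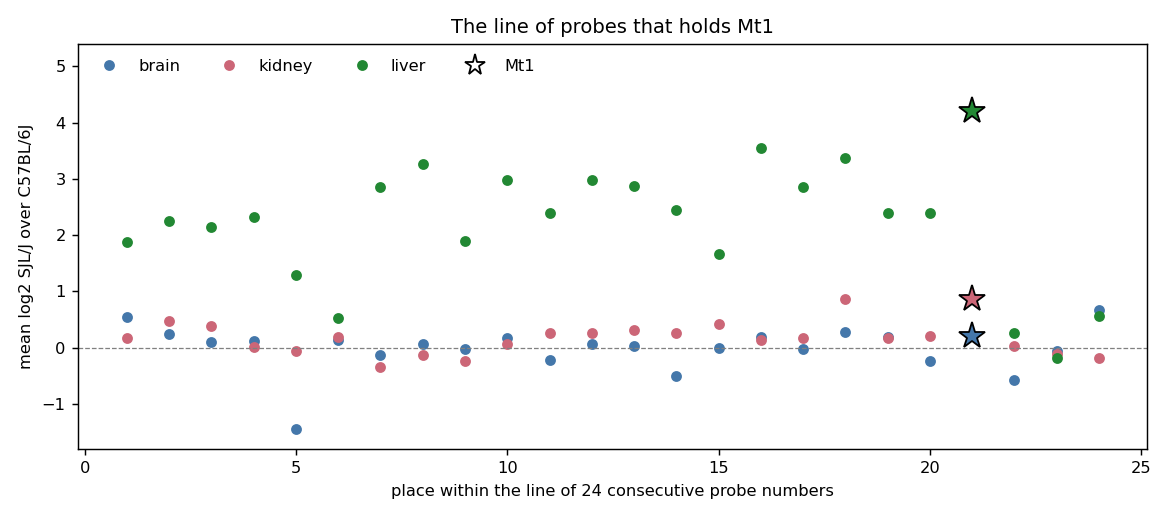
Mean log2 strain ratio (vertical axis, SJL/J over C57BL/6J, 3 arrays per tissue) of the 24 probes in the line that holds Mt1, by place in the line (horizontal axis), with Mt1 as a star. Nearly the whole line is raised in liver, where its median is 2.40, and Mt1 lies above the rest at 4.22.

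With the line median of each array subtracted, Mt1 kept a positive ratio in liver but a smaller one. The line medians of liver replicates 1, 2 and 3 were 2.42, 2.43 and 2.22. After subtraction the liver arrays gave 2.38, 1.43 and 1.78, a mean of 1.86 ± 0.48 (SD, n = 3), or 3.63-fold, and rank 85 of all probes. Kidney gave 1.16, 0.40 and 0.52 (0.69 ± 0.41) and brain -0.05, 0.25 and 0.21 (0.13 ± 0.16). The pass in liver and kidney and its absence in brain were the same on this scale. How much of the shift of the line belongs to Mt1 itself was not tested.

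Mt3, the metallothionein of brain, also had its highest mean in liver, but its liver and brain arrays overlapped. The difference of liver minus brain was 0.72 (SE 0.33) and did not pass. Its arrays gave 2.21, 0.98 and 1.07 there (1.42 ± 0.69, SD, n = 3, 2.67-fold), and the probe passed. Liver replicate 1 was the high array, and without it the mean was 1.02 and still passed. In brain the ratios of Mt3 were 0.35, 0.42 and 1.30 (0.69 ± 0.53) and did not pass. Brain replicate 3 was the high one, and the mean was 0.39 without it. Kidney arrays were close together at 0.21, 0.16 and 0.30 (0.23 ± 0.07), below all brain and liver arrays, and did not pass.

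The line of Mt3 had medians of its probes' means of 0.05, 0.09 and 0.01 in brain, kidney and liver, and subtracting line medians left its liver ratio at 1.42 ± 0.70 (SD, n = 3). The level of Mt3 RNA in liver is not known from these data, and the probe sequences were not used here.

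Mt4, which is no member, is the remaining gene of the cluster and lies next to Mt3, followed by Mt2 and Mt1 in the order of GRCm38.p6. Its ratio was below 0 on all arrays: -0.14 ± 0.08 in brain (SD, n = 3, adjusted p = 0.334, limma), -0.56 ± 0.05 in kidney (adjusted p = 0.00206) and -0.43 ± 0.22 in liver (adjusted p = 0.00877). With line medians subtracted, the liver ratio of Mt4 no longer passed (adjusted p = 0.179, limma). The coding genes around the cluster, 5 on either side chosen by order after the values were seen, gave 7 probes of 6 genes. Herpud1, of the disposal of misfolded proteins, was the one among them that passed, higher in kidney (0.39 ± 0.12, SD, n = 3, adjusted p = 0.0159, limma) and lower in liver (-0.66 ± 0.09, adjusted p = 0.00104). Bbs2 and Nup93, which flank the cluster, had liver ratios of 0.04 ± 0.18 and 0.15 ± 0.21.

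**Figure D3:**
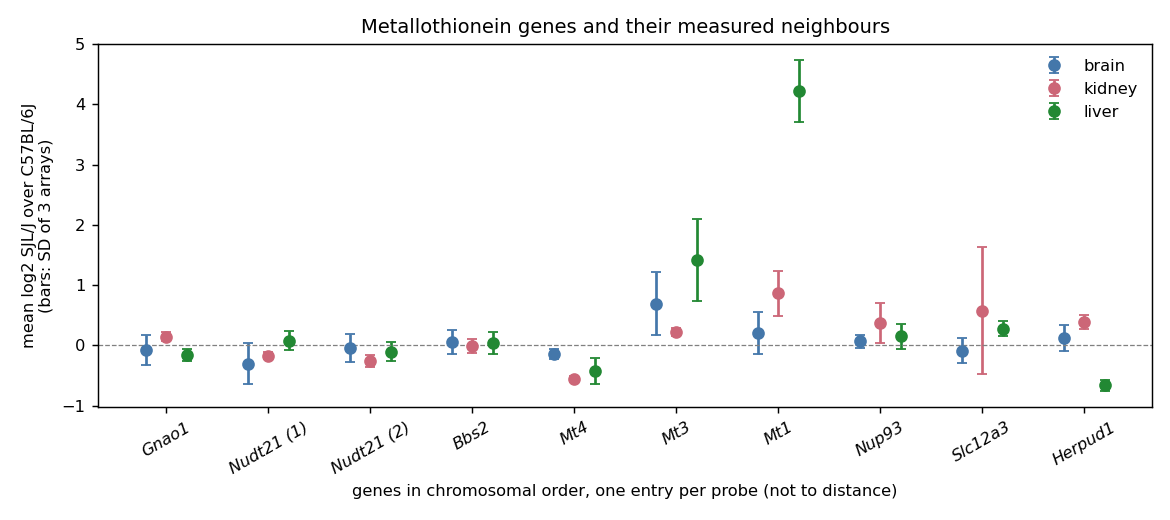
Mean log2 strain ratio with the SD of 3 arrays (vertical axis, SJL/J over C57BL/6J) for the metallothionein genes and their measured neighbours in chromosomal order, not drawn to distance, 1 entry per probe. Mt1 and Mt3 stand above their neighbours in liver, while Mt4 lies below 0 in all tissues.

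Genes nearest to Mt1 in pattern were found by the root mean square difference of the log2 ratio over the 9 arrays, with line medians subtracted, among 14692 probes that carry a single symbol and lie outside the multiples of 8. The nearest were Ier5l (difference 0.37), Ogfod3 (0.40), Orm3 (0.41), Mamstr (0.41) and Nfkb2 (0.43). On the deposited scale the 5 nearest were other genes, 1700066C05Rik (0.79), Lysmd2 (0.97), Serpina1f (0.97), Stx6 (0.98) and Gp2 (1.002), so the list depends on the subtraction. Lysmd2 lies in the line of Mt1, and 1700066C05Rik and Serpina1f share another line with a high liver median (2.43). With line medians subtracted, the liver ratios were 2.04 for Ier5l, 1.51 for Ogfod3, 1.95 for Orm3, 1.27 for Mamstr and 1.51 for Nfkb2. Orm3 encodes an orosomucoid of plasma and Nfkb2 a subunit of NF-kappa B. Nfkb2, the least near of the 5, had 1.05 in kidney on that scale, against 0.69 for Mt1. The arrays share pools within a tissue, so the 9 values are not independent.

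The genes induced by glucocorticoids and stress lay on opposite sides of 0 in kidney and liver, although most of their ratios did not pass. Fkbp5, Tsc22d3, Sgk1, Cdkn1a and Dusp1 had means above 0 in kidney for 5 of 5 genes, from 0.18 to 0.71, and below 0 in liver for 5 of 5, from -0.74 to -0.07. In brain 2 were above 0 and 3 below, from -0.39 to 0.17. With line medians subtracted the signs of the kidney and liver means were the same, and in brain 3 were above 0. The liver means of Fkbp5 and Sgk1 were then close to 0, at -0.01 and -0.06, and their liver arrays differed in sign. The share of all probes with opposite signs in kidney and liver is not given here, so the signs are a description only.

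Fkbp5 had the clearest kidney ratio. The 3 kidney arrays gave 0.70, 0.63 and 0.81 (0.71 ± 0.09, SD, n = 3, 1.64-fold) and passed. Brain gave 0.24, 0.00 and 0.28 (0.17 ± 0.15) and liver -0.03, -0.06 and -0.12 (-0.07 ± 0.05), neither of which passed. Every kidney array lay above every brain array and, as deposited, every brain array above every liver array. With line medians subtracted the kidney arrays stayed apart, with a mean of 0.75. Brain then gave 0.24, -0.02 and 0.33 and liver 0.01, -0.02 and 0.00 (-0.01 ± 0.01), which overlapped.

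Tsc22d3 lay on opposite sides of 0 in liver and kidney. Liver arrays gave -0.63, -0.51 and -0.72 (-0.62 ± 0.10, SD, n = 3), 1.53-fold lower in the SJL/J pool, and passed. Leaving out liver replicate 1, 2 or 3 ended that call each time, with means of -0.61, -0.67 and -0.57. Kidney arrays gave 0.08, 0.53 and 0.71 (0.44 ± 0.33), which did not pass as deposited. The kidney ratio passed in 5 of 17 alternatives, among them with line medians subtracted (0.59 ± 0.33) and without kidney replicate 1 or brain replicate 3, which enters the shared spread. Brain replicates 1 and 2 gave -0.34 and -0.23 and replicate 3 gave 0.49, so brain had no shared sign.

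Sgk1 had ratios of 0.01, 0.37 and 0.22 in kidney (0.20 ± 0.18, SD, n = 3), -0.01, -0.31 and -0.44 in liver (-0.25 ± 0.22) and -0.05, -0.45 and -0.23 in brain (-0.24 ± 0.20). None of these passed. All kidney arrays lay above all liver and brain arrays, the nearest kidney and liver arrays at 0.01 and -0.01. Part of the liver and brain values was shared with the probe's line, and the subtracted means were -0.06 and -0.10, against 0.31 in kidney.

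Cdkn1a had small ratios in all tissues. Its arrays gave 0.30, 0.25 and -0.01 in kidney (0.18 ± 0.17, SD, n = 3), -0.23, -0.14 and -0.03 in liver (-0.14 ± 0.10) and 0.10, 0.13 and 0.03 in brain (0.09 ± 0.05). The gene passed nowhere, and the brain arrays lay inside the range of the kidney arrays.

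Dusp1 gave close values in kidney and scattered ones in liver. Kidney arrays read 0.24, 0.38 and 0.33 (0.32 ± 0.07, SD, n = 3), all above the brain arrays at -0.57, -0.55 and -0.05 (-0.39 ± 0.30). Liver replicates 1, 2 and 3 read -0.73, -2.17 and 0.67, a mean of -0.74 ± 1.42, so arrays of the same pools differed in sign. Without replicate 2 the liver mean was -0.03, without replicate 3 it was -1.45 and passed, and without replicate 1 it was -0.75. None of the 3 tissues passed over all arrays. Because the fit shares 1 spread over all tissues, the scatter in liver also widened the error in kidney, where the gene passed on the kidney arrays alone.

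Counted over the 7 genes, 0 passed in brain (1 at an unadjusted p under 0.05, limma), where 20.2% of all probes passed. In kidney 2 passed as higher, where 14.5% of all probes did. In liver 2 passed as higher and 1 as lower, against 12.8% and 12.4% of all probes. Median ratios of the 7 were 0.09 in brain, 0.32 in kidney and -0.14 in liver, while over all probes they were 0.01, 0.02 and 0.01. With line medians subtracted, 3 passed as higher in kidney (11.6% of all probes) and the medians were 0.07, 0.37 and -0.06.

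Differences between tissues were taken in the same fit. For liver against kidney, 4 of 7 genes passed, where 18.5% of all probes did. Mt1 was higher in liver by 3.35 (SE 0.28) and Mt3 by 1.19 (SE 0.33), whereas the differences of Fkbp5 and Tsc22d3 were -0.78 (SE 0.12) and -1.06 (SE 0.23). Line medians subtracted, they were 1.17 (SE 0.26) for Mt1, 1.29 (SE 0.35) for Mt3, -0.76 (SE 0.13) for Fkbp5 and -1.07 (SE 0.21) for Tsc22d3, and the same 4 genes passed (15.1% of all probes). The Mt3 difference did not pass without liver replicate 1 or without any one of the kidney arrays. Sgk1, Cdkn1a and Dusp1 had differences of -0.45 (SE 0.16), -0.31 (SE 0.13) and -1.06 (SE 0.53), which did not pass. Arrays of liver and kidney did not overlap for 6 of the 7 genes, all but Dusp1, and for 45.8% of all probes. Once line medians were subtracted, Sgk1 and Cdkn1a overlapped too, which left 4 of 7 (43.3% of all probes). As deposited, liver and brain arrays did not overlap for 4 of 7 genes (29.6% of all probes). Kidney and brain arrays, also as deposited, did not overlap for 4 of 7 (29.7%). With line medians subtracted, the genes set apart for these pairs of tissues were not all the same.

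**Figure D4:**
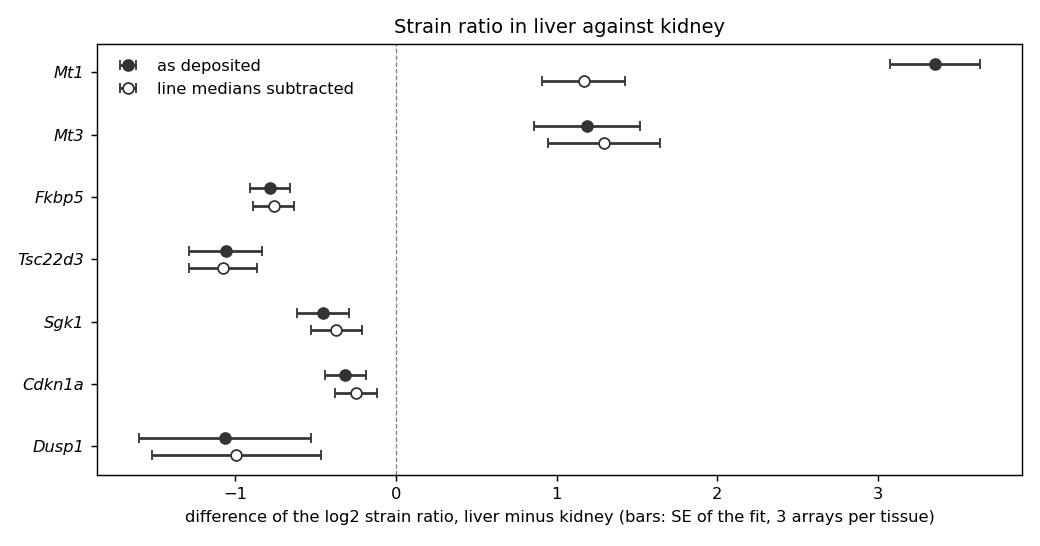
Difference of the log2 strain ratio, liver minus kidney (horizontal axis), with the SE of the fit (3 arrays per tissue), as deposited (filled) and with line medians subtracted (open). Mt1 and Mt3 lie to the right of 0 and the 5 genes induced by glucocorticoids and stress to the left, with Dusp1 the least certain at -1.06 (SE 0.53).

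Against brain, the liver ratio was higher for Mt1 by 4.01 (SE 0.28), the 1 of 7 genes that passed, where 9.25% of all probes did. In kidney against brain 1 of 7 passed, Fkbp5, higher in kidney by 0.54 (SE 0.12), where 5.27% of all probes passed. That call of Fkbp5 was lost in 10 of 17 alternatives, among them the brain and kidney arrays fitted alone and each array left out except brain replicate 3. The comparisons with kidney and with brain share the liver arrays, so they are not separate checks.

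Genes of metal transport and metal response outside the members gave calls in both directions. Of 34 probes (33 genes), 1 rose and 4 fell in brain, 7 rose and 7 fell in kidney, and 3 rose and 9 fell in liver, with medians of 0.01, 0.06 and 0.02. Of all probes, 10.4% rose and 9.87% fell in brain, 14.5% and 14.5% in kidney, and 12.8% and 12.4% in liver. After line subtraction the list gave 4 higher and 8 lower in kidney, and 5 and 5 in liver, so the balance differed between the scales. On that scale 5766 of all 23040 probes passed in kidney and 4565 in liver, in either direction. Slc39a4, a zinc importer of the intestine, fell in all tissues, by 0.55, 0.43 and 1.07 on the log2 scale in brain, kidney and liver (adjusted p = 0.0223, 0.0435 and 0.000522, limma). Its kidney value was -0.80 with line medians subtracted. Gclc, the limiting enzyme of glutathione synthesis, fell in liver by 0.96 (adjusted p = 0.00358, limma). Atox1, a copper chaperone, fell in kidney by 1.43 and Slc30a6, a zinc transporter of the Golgi, by 1.27, but both lie at multiples of 8. The metal sensor Mtf1 had 0.13, 0.11 and 0.04 in brain, kidney and liver, and the zinc exporter Slc30a1, which Mtf1 also induces, 0.25, 0.09 and -0.08, none of which passed.

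Other genes induced by glucocorticoids did not share one direction either. Of 47 probes (44 genes), 4 rose and 5 fell in brain, 7 rose and 6 fell in kidney, and 5 rose and 12 fell in liver, with medians of -0.04, 0.02 and -0.05. All probes gave 10.4% higher and 9.87% lower in brain, 14.5% and 14.5% in kidney, and 12.8% and 12.4% in liver. On the subtracted scale 5 rose and 4 fell in kidney, and 4 and 8 in liver. There 5766 of all 23040 probes passed in kidney and 4565 in liver, in either direction. Pck1, the entry enzyme of glucose synthesis, rose in kidney (1.04 ± 0.58, SD, n = 3, adjusted p = 0.0114, limma) and had -0.20 in liver, which did not pass. Cebpb, a transcription factor of the stress response, rose in kidney by 0.77 (adjusted p = 0.00384, limma). Per1, a clock gene with a glucocorticoid response element, rose in brain (0.77 ± 0.35, SD, n = 3, adjusted p = 0.00361, limma), with 0.24 in kidney and 0.03 in liver, which did not pass. G6pc, of glucose release, fell by 1.54 on the log2 scale in brain and fell by 2.73 in liver, and Lcn2, which binds iron carriers of bacteria, rose in brain by 1.22 as well as in liver by 3.40. The liver values of G6pc, Lcn2 and Tdo2 (-1.69) were known before the list was written.

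The receptor itself gave no single answer. One Nr3c1 probe rose in brain (0.44 ± 0.17, SD, n = 3, adjusted p = 0.0326, limma) and liver (0.59 ± 0.26, adjusted p = 0.00683), with 0.08 in kidney, whereas the other had -0.20, -0.22 and -0.26 in brain, kidney and liver and passed in none. Over the receptor, its chaperones and steroid handling (17 probes, 16 genes), 4 rose and 0 fell in brain (6 and 2 at an unadjusted p under 0.05, limma), 1 rose and 2 fell in kidney, and 4 rose and 2 fell in liver, with medians of -0.02, 0.07 and 0.05. Shares of all probes were 10.4% higher and 9.87% lower in brain, 14.5% and 14.5% in kidney, and 12.8% and 12.4% in liver. The line-subtracted ratios gave 2 higher and 3 lower in kidney, and 5 higher and 0 lower in liver (7 and 1 at an unadjusted p under 0.05, limma). Of all 23040 probes, 5766 passed in kidney and 4565 in liver on that scale, in either direction. Fkbp4, the co-chaperone that opposes Fkbp5, rose in kidney by 0.40 (adjusted p = 0.0402, limma), the tissue in which Fkbp5 was highest. Ptges3, the p23 co-chaperone, rose in liver by 0.81 and Crhr1, a receptor for corticotropin-releasing hormone, by 1.18. Hsd11b1, which regenerates active glucocorticoid, had -0.71 in kidney at a multiple of 8.

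Immediate early genes, which like Dusp1 respond within minutes to a stimulus, were called in either direction. Of 35 probes (34 genes), 1 rose and 1 fell in brain, 4 rose and 5 fell in kidney, and 2 rose and 4 fell in liver, with medians of -0.07, -0.11 and 0.06. Over all probes the shares were 10.4% higher and 9.87% lower in brain, 14.5% and 14.5% in kidney, and 12.8% and 12.4% in liver. Subtracting line medians gave 5 higher and 1 lower in kidney, and 2 and 2 in liver. The same subtraction left 5766 of all 23040 probes passing in kidney and 4565 in liver, in either direction. In kidney Arc rose by 0.77 (adjusted p = 0.00479, limma), Fos by 0.62 (adjusted p = 0.00939) and Ier2 by 0.60 (adjusted p = 0.00634). Jun rose in brain by 0.61, and Socs3, an inhibitor of cytokine signalling, in liver by 0.79, the latter at a multiple of 8. Klf2 was lower in brain (-0.39, adjusted p = 0.0132, limma). Klf10 and Dusp16 were lower in liver (-0.83 and -0.54), both at multiples of 8. The lowest kidney mean of the list was -0.49.

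Targets of p53 and other inhibitors of cyclin-dependent kinases, the company of Cdkn1a, showed 4 higher and 2 lower in brain, 1 and 5 in kidney, and 3 and 6 in liver, of 29 probes (28 genes), with medians of 0.01, 0.00 and -0.09. Among all probes 10.4% were higher and 9.87% lower in brain, 14.5% and 14.5% in kidney, and 12.8% and 12.4% in liver. With line medians subtracted, 0 rose and 5 fell in kidney, and likewise 0 and 5 in liver (1 higher and 7 lower, and 1 and 8, at an unadjusted p under 0.05, limma). Passing on that scale, in either direction, were 5766 of all 23040 probes in kidney and 4565 in liver. Psrc1 fell by 1.20 ± 0.22 (SD, n = 3) on the log2 scale in brain and by 0.98 ± 0.71 in liver. In kidney its arrays read -1.26, -0.08 and -1.49, a mean that passed as deposited but not with line medians subtracted (-0.72, adjusted p = 0.0644, limma). Polk, a DNA polymerase for damaged templates, rose in brain by 0.85, and its kidney ratio of -0.48 passed as deposited but not with line medians subtracted (-0.36, adjusted p = 0.0782, limma). For kinases, channels and relatives of Sgk1, Tsc22d3 and Fkbp5 (34 probes, 28 genes), 2 rose and 2 fell in brain, 6 and 5 in kidney, and 3 and 8 in liver, with medians of -0.07, 0.05 and -0.09. The shares of all probes, on either scale, are those given for the p53 list. Line-subtracted, 3 rose and 4 fell in kidney, and 1 and 6 in liver. Of the complex that activates Sgk1, Mapkap1 rose in kidney by 0.67, while a Rictor probe at a multiple of 8 fell by 1.04 and the other Rictor probe had 0.04, which did not pass. Pdpk1, the other activating kinase, fell in kidney by 0.64, at a multiple of 8. The ubiquitin ligase Nedd4 fell in liver by 0.80 (by 0.47 with line medians subtracted), and its relative Nedd4l, which removes sodium channels and is held back by Sgk1, by 0.95, at a multiple of 8.

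**Figure D5:**
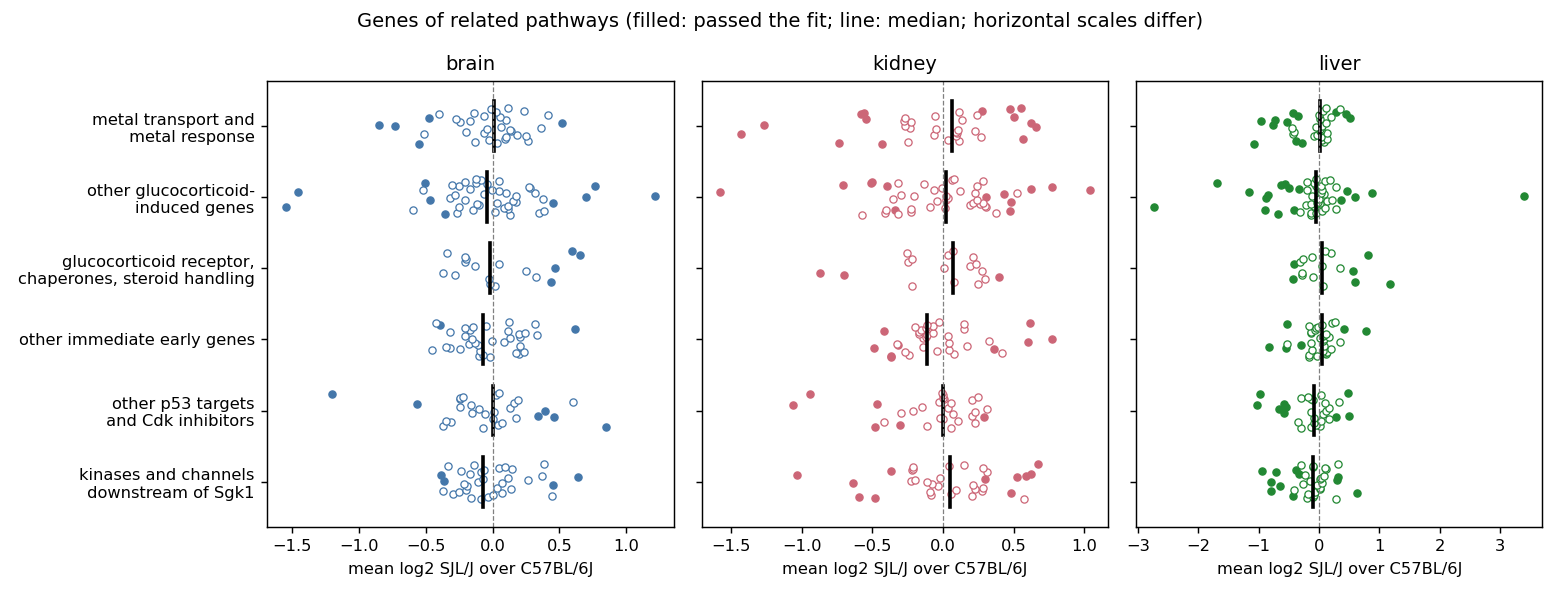
Mean log2 strain ratio (horizontal axis, SJL/J over C57BL/6J, scales differ between tissues) of each probe in 6 lists of related genes in brain, kidney and liver; filled points passed the fit, open points did not, and black bars are list medians. Calls fall on both sides of 0 and list medians stay between -0.11 and 0.07.

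Markers of cell types moved as follows, and their part in the ratios of the members was not tested. In liver 6 of 9 hepatocyte markers rose and 0 fell (median 0.63), 3 of 11 markers of the acinar pancreas rose and 1 fell (0.24), 1 of 8 macrophage probes rose and 0 fell (0.08) and 2 of 6 neutrophil markers rose and 0 fell (0.04). In kidney 1 of 10 adrenal markers rose and 2 fell (median -0.16), 2 of 4 markers of the distal nephron rose (0.58), and 1 of 8 probes of the proximal tubule rose and 1 fell (-0.06). In brain 1 of 5 neuronal markers rose and 1 fell (0.15), as did 1 and 1 of 10 probes for astrocytes and oligodendrocytes (0.05), and 0 of 9 for choroid plexus and pituitary passed (0 higher and 1 lower at an unadjusted p under 0.05, limma). Adipocyte markers gave 2 higher and 2 lower of 5 in kidney, and blood markers 2 higher and 1 lower of 3 in liver. For all probes the shares were 12.8% higher and 12.4% lower in liver, 14.5% and 14.5% in kidney, and 10.4% and 9.87% in brain.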

How the data were processed

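Log2 ratios of the 2 channels were deposited by the authors for 23040 probes on 9 arrays. The authors worked with limma in R 2.0.0, per the submitters' processing notes. How background was corrected is not given in the sources used here. The sorted values of the arrays were the same, so their distributions had been made equal before deposit. The log base and the direction are not stated and were inferred. Probes were named through the platform annotation: 16874 had 1 symbol, 134 had several and 6032 were unnamed here.

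A model with 1 coefficient per tissue was fitted with limma 3.58.1 in R 4.3.3 to all arrays (6 residual degrees of freedom), with Benjamini-Hochberg adjustment over all probes, a threshold of 0.05 and contrasts between tissues. The fit was tested on simulated data. Lines are runs of 24 consecutive probe numbers, whose median was subtracted on each array as an alternative. Folds are 2 to the power of the mean log2 ratio. The number of arrays limits the precision. Named genes were all members and, from each of 6 pathway lists, genes among the 3 largest passing ratios per tissue with the same sign on all arrays, besides Nr3c1, Mtf1, Slc30a1, Per1, Fkbp4 and Hsd11b1. For Mt1 the 5 genes nearest in pattern were named, and Mt2 had no probe for this. Mt4, Herpud1, Bbs2, Nup93 and Tfrc were chosen after their values were seen. Lists, 12 of them of cell type markers, were described by counts and medians with no set test. Members and lists were chosen with earlier results of these data known.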

Additional observations from a re-analysis of the deposited data

Results flagged for a closer look

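Strain ratios of 4 genes differed between tissues by the contrast of the fit. Mt1 was higher in liver than in kidney by 3.35 and than in brain by 4.01, and both differences passed with line medians subtracted too, at 1.17 and 1.73. Mt3 was higher in liver than in kidney by 1.19, a call that held in 13 of 17 alternatives. Fkbp5 had -0.78 for liver minus kidney and 0.54 for kidney minus brain, the latter call holding in only 7 of 17 alternatives. Tsc22d3 had -1.06 for liver minus kidney, its ratio being below 0 on all liver arrays and above 0 on all kidney arrays. The genes were chosen with these ratios known, and no explanation was weighed.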

How the results depend on the processing

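In 17 alternatives the means and differences of the 7 genes gave 714 values, of which 701 stayed within 1 SD of the value as deposited, 13 moved further and 0 of the called ones changed sign. Many of these values could not move. A mean stays the same when other probes are dropped or when an array of another tissue is left out. The replicate block and the fits on own arrays leave it unchanged too. The count of 701 is therefore no measure of stability. Subtracting line medians lowered Mt1 in liver from 4.22 to 1.86. With 1 array left out, the number of the 7 genes that passed was 0 to 1 in brain, 2 to 3 in kidney, 2 to 3 in liver, 3 to 5 for liver against kidney, 1 to 1 for liver against brain and 0 to 2 for kidney against brain. Over all probes the same settings gave 2325 to 5091 calls in brain (4660 with all arrays), 3855 to 7917 in kidney (6681), 3273 to 6998 in liver (5805), 2227 to 5718 for liver against kidney (4253), 1101 to 2386 for liver against brain (2132) and 183 to 3229 for kidney against brain (1215).

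For kidney against brain, calls over all probes were 796 with line and column medians subtracted, 714 over probes with a single symbol and no multiple of 8, 3573 with array weights, and 182 with the arrays of both tissues alone, when 0 of the 7 genes passed. Over probes with a single symbol and no multiple of 8, 2144 passed in brain, 3272 in kidney, 3191 in liver and 2557 for liver against kidney. These counts and the 714 are out of 14692 probes, whereas the counts as deposited are out of 23040. Array weights gave 6394 for liver against kidney. Own arrays gave 1564 in brain and 1160 for liver against brain. The cause of these moves was not tested. Arrays that share a replicate number did not deviate together (correlations of -0.09 to 0.05 over probes, and 1 of 9 arrays correlated best with its own number). With the replicate number as a block, 587 probes and 0 of the 7 genes passed for kidney against brain.

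Counts in the pathway lists are small and moved with the settings: in liver, genes induced by glucocorticoids gave 7 to 12 lower calls and metal genes 4 to 10. Without levels or intensities, dim spots cannot be told from bright ones.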
